A study of Mus musculus with 4 samples.

Results

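The genes described here encode the voltage-gated calcium channels, the voltage-gated sodium channels, the HCN channels and the transient receptor potential (TRP) channels, taken as every probe whose gene symbol begins with Cacn, or with Scn, Hcn, Trpa, Trpc, Trpm or Trpv and a digit. On the array, 85 of 25697 probes met this rule, and they named 51 of the 16593 genes. They comprised 36 probes of 20 calcium channel genes, 9 probes of 8 sodium channel genes, 4 probes of 2 HCN genes and 36 probes of 21 TRP genes. By role, 58 probes belonged to 34 genes of pore subunits and 27 probes to 17 genes of auxiliary subunits, among which Trpc4ap, a protein that binds the TRPC4 channel and forms no pore, was placed.

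Transcripts bound to tagged ribosomes in the mouse mediobasal hypothalamus were measured on 4 Illumina MouseRef-8 v2 arrays in 2 groups of 2. The lineage group came from a cross of Pomc-Cre with RiboTag mice, so that a ribosomal protein carried a hemagglutinin tag in every cell that had once expressed Cre and in its descendants. In the virus-injected group, Pomc-Cre mice had received the Cre-dependent vector AAV-DIO-RiboTag, and the labels call these samples adult POMC neurons. Both groups therefore carried Pomc-Cre, whose promoter is also active in precursors that later become other neurons, and the labels give neither age nor the number of animals behind an array. The comparison bears on which hypothalamic neurons come from Pomc-expressing precursors, and the channel genes bear on the excitability of those neurons.

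Voltage-gated calcium channels let calcium enter when a neuron is depolarised and so couple firing to transmitter and peptide release, while voltage-gated sodium channels carry the upstroke of the action potential. HCN channels open on hyperpolarisation and help to set resting potential and rhythmic firing. TRP channels are cation channels opened by receptors, lipids, temperature or chemicals, and TRPC channels carry the depolarising current by which leptin excites POMC neurons in mice.

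The arrays were alike in depth and quality. Between 10982 and 12306 probes per array were detected (detection p-value under 0.05), and over probes, which are not independent replicates, Pearson's r of the log2 values was 0.968 between the virus-injected arrays, 0.964 between the lineage arrays and 0.949 to 0.960 for pairs from different groups. Pomc, the defining transcript, was detected on all 4 arrays at normalized log2 intensities of 12.09 and 12.25 in the virus-injected group and 12.75 and 12.90 in the lineage group. The channel probes were each read from 21 to 62 beads, and the standard error over beads was a median of 3.89% of the intensity. All arrays lay on 1 beadchip, with the groups at different positions, so position and group cannot be told apart. The labels do not say that replicates were separate animals, and the p-values measure only the spread between these arrays.

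Detection divided the channel families. A probe was taken as measured where it was detected on at least 2 of the 4 arrays, which held for 51 of the 85 channel probes (60%), beside 47.7% of all probes on the array. These 51 probes stood for 32 of the 51 genes, and 45 of them were detected on all 4 arrays. Of the calcium channel probes 27 of 36 were measured, of the sodium channel probes 6 of 9 and of the HCN probes 4 of 4, but of the TRP probes only 14 of 36. Within the TRP family the split ran by subfamily. All 9 probes for Trpc genes and Trpc4ap were measured, against 3 of 16 Trpm probes, which all read Trpm3, 2 of 10 Trpv probes, for Trpv2 and Trpv6, and 0 of 1 for Trpa1. Auxiliary subunits were measured by 22 of 27 probes and pore subunits by 29 of 58, but 33 of the pore probes were for TRP genes, with 11 measured. For calcium channels 16 of 20 auxiliary and 11 of 16 pore probes were measured, and for sodium channels 3 of 4 and 3 of 5. All 4 arrays read precipitated RNA and none read the input, so a detected transcript need not come from tagged neurons. The astrocyte gene Gja1, for example, was detected on all 4 arrays, at normalized log2 values of 10.83 to 11.56. The cells behind each channel transcript were not tested.

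The 19 channel genes without a measured probe were Cacna1d and Cacna1f (L-type pores), Cacng1 and Cacng6 (gamma subunits best known from muscle), Scn10a and Scn11a (sodium channels of sensory neurons), Scn4b (a sodium channel beta subunit), Trpa1 (the irritant receptor), Trpm1, Trpm2, Trpm4, Trpm5, Trpm6, Trpm7, Trpm8 (the cold receptor), Trpv1 (the capsaicin receptor), Trpv3, Trpv4 and Trpv5. Their 28 probes lay between 5.66 and 7.63 on the normalized log2 scale. Scn10a, Trpv4 and Trpv5 were each detected on 1 array. A probe that does not rise above background gives no level, and such a gene may still be expressed.

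The RefSeq promoter windows of these genes, 250 bases before to 50 bases after the start of the gene, held more CG dinucleotides in measured than in unmeasured genes. The direction was that of all genes, with a smaller gap, and it did not hold in every family. Of the 51 channel genes 42 had a window, and for genes with several the window with most CG was taken. The 26 measured channel genes with a window had a median of 17.5 CG per window, and the 16 unmeasured ones a median of 7. Over all genes on the array the medians were 23 for the 6820 detected genes with a window and 6 for the 6516 not detected. By family, measured and unmeasured medians were 34.5 and 8 for calcium (12 and 3 windows) and 16 and 5.5 for TRP (9 and 10 windows). Sodium channel genes ran the other way, with 4 and 11 (4 and 3 windows). The sequence GGGCGG, read on both strands, was in 14 of the 26 measured channel windows and in 4 of the 16 unmeasured ones. These are 53.8% and 25% of the windows, against 67.5% of the detected genes and 36.4% of the genes not detected on the whole array, and 35.7% of all windows of this length. The windows below show this range, with CG in capitals, and are given in the direction of transcription. They are those of Cacna2d1 (chr5:15934441-15934740, plus strand, GRCm38.p6), Cacng5 (chr11:107915006-107915305, minus strand), Trpc4 (chr3:54155807-54156106, plus strand), Trpv6 (chr6:41636356-41636655, minus strand) and Trpm8 (chr1:88306485-88306784, plus strand). Cacna2d1 and Trpm8 stand for a measured gene rich in CG and an unmeasured gene poor in it, and the other 3 have the differences between groups of over 0.6 on the log2 scale that are described further on.
Cacna2d1: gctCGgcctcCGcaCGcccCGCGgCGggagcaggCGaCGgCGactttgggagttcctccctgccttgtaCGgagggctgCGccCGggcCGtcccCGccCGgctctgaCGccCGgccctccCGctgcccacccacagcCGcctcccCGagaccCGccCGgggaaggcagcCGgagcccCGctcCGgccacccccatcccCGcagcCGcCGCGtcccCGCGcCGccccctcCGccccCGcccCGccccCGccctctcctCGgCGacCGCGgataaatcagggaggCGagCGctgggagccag
Cacng5: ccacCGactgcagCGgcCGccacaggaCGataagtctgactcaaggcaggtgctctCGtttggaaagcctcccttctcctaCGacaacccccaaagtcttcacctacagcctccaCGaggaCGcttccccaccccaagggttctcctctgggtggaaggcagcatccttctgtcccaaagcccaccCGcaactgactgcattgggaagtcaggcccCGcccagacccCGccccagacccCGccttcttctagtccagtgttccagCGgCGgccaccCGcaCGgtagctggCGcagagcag
Trpc4: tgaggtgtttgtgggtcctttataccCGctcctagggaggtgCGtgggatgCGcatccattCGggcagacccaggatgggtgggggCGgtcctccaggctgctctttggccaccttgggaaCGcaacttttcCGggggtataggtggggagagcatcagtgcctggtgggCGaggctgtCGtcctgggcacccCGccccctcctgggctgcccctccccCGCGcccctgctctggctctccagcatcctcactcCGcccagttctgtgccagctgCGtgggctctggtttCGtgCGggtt
Trpv6: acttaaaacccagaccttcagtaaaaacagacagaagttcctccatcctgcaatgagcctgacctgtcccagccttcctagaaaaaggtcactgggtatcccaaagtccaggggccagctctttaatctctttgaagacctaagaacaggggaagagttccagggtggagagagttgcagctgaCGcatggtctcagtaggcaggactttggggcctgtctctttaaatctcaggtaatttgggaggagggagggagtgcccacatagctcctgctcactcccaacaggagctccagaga
Trpm8: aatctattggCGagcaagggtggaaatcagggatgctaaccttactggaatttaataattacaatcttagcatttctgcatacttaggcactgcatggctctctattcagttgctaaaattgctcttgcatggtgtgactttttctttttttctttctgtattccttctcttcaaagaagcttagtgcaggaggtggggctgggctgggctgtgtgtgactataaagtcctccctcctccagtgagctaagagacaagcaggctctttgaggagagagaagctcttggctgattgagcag
The Cacna2d1 window holds 42 CG and 7 copies of GGGCGG, the Cacng5 window 17 and 2, and the Trpc4 window 16 and 3. The Trpv6 and Trpm8 windows hold 1 CG each and no GGGCGG, so Trpv6 was measured with a window as poor in CG as that of unmeasured Trpm8. Other members departed from the medians too. Cacna1d was not measured and had 63 CG, the most among channel genes with a window, and Scn2b was detected on all arrays with 2.

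**Figure D1:**
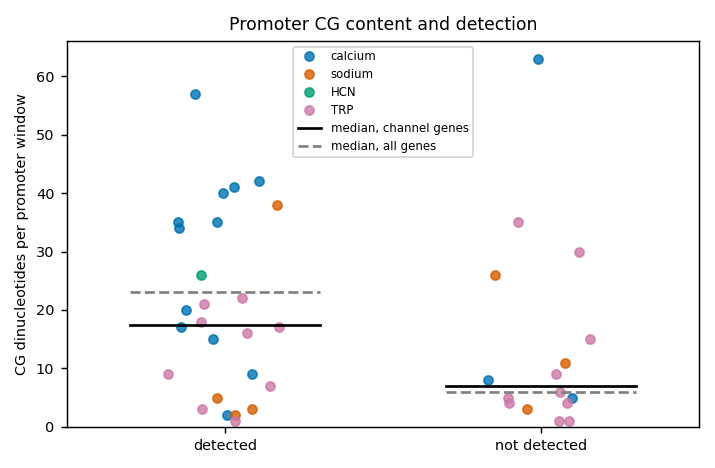
Number of CG dinucleotides in the promoter window (vertical axis) of 26 channel genes with a measured probe and 16 without, 1 point per gene, coloured by family. Black lines mark the channel medians of 17.5 and 7, and dashed grey lines the medians of 23 and 6 over all genes on the array.

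Across the 2 groups the largest difference of a channel probe was 1.82-fold by point values. In the limma fit across all 12266 measured probes, 0 of the 51 channel probes passed an adjusted p of 0.05 (0% of all probes did), and the lowest adjusted p of a channel probe was 0.463. The same threshold missed Avp, a marker of neurons outside the arcuate nucleus, at an 18.8-fold difference (limma adjusted p = 0.177). With 2 arrays per group, the absence of a call does not show that a transcript was unchanged. At an unadjusted p under 0.05 there were 2 channel probes, 1 for Cacng5, higher in the lineage group, and 1 for Trpv6, lower. That is 3.92% of the 51, against 10.4% of all probes tested, of which 4.84% were higher in the lineage group and 5.55% lower. A log2 difference of at least 0.5 in size was reached by 5 of the 51 probes (9.8%), against 14.4% of all probes. The 95% interval of the difference lay inside a 2-fold change in either direction for 39 of 51 channel probes and reached beyond it for 12. That is 76.5% inside, close to the 73.8% of all probes tested. Standard errors of the channel probes were 0.14 to 0.42 (median 0.22). A fit in which the spread follows brightness gave 0 adjusted calls among the channel probes, beside 1.89% of all probes, and 6 channel probes at an unadjusted p under 0.05 (11.8%, against 13.5% of all probes).

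**Figure D2:**
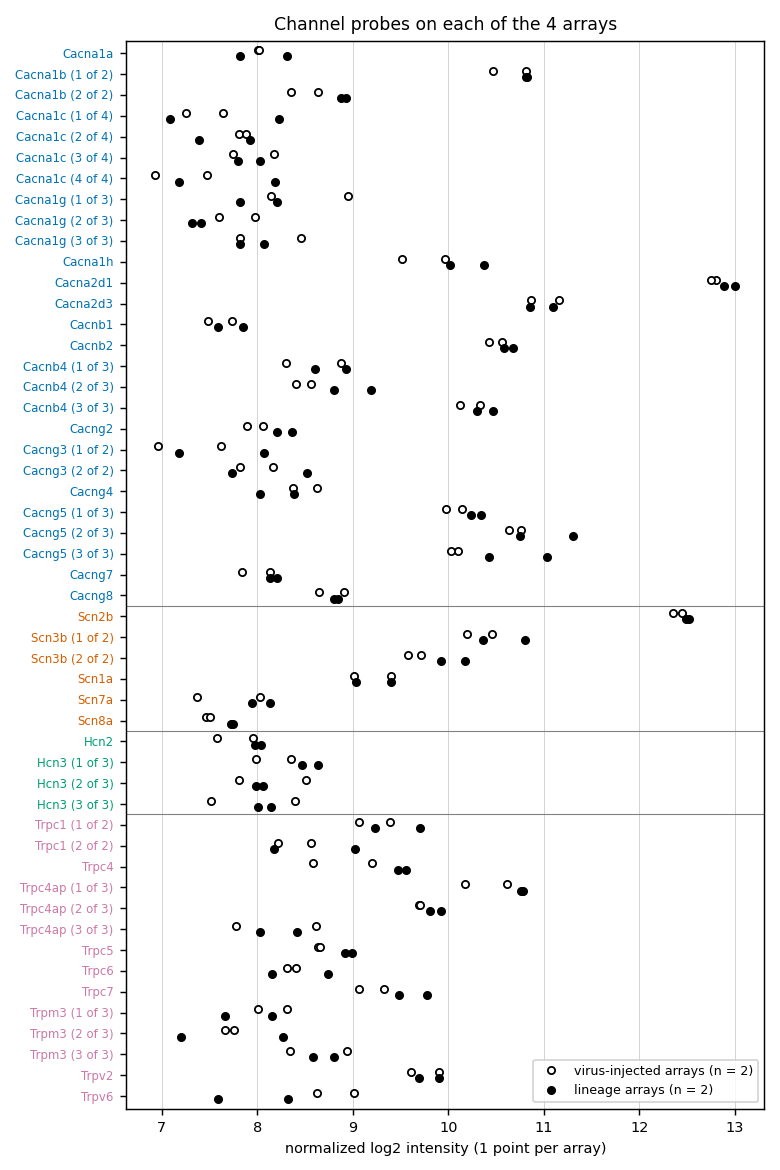
Normalized log2 intensity (horizontal axis) of the 51 measured channel probes on the 2 virus-injected arrays (open points) and the 2 lineage arrays (filled points), 1 row per probe, grouped into calcium, sodium, HCN and TRP families from top to bottom. Levels of different probes cannot be set against each other. The groups overlap for 30 of the 51 probes, and for 6954 of all 12266 probes tested.

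Small positive differences were the more common ones. Of the 51 channel probes 41 averaged higher in the lineage group (80.4%), against 50.6% of all probes tested, and the median log2 difference was 0.17 against 0.0030 for all probes. The lineage arrays lay wholly above the virus-injected arrays for 19 probes (37.3%, against 21.9% of all probes) and wholly below for 2 (3.92%, against 21.4%). With 1 array left out and the same 51 probes kept, 34 to 38 averaged higher in the lineage group. The median level over the 51 probes was 8.61 and 8.46 on the virus-injected arrays and 8.58 and 8.64 on the lineage arrays, and these values overlap between the groups. Several probes can read 1 gene, so the probes are not independent of each other.

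Markers of cell types moved in the same comparison. Of 11 measured probes for 8 genes of POMC neurons, 8 averaged higher in the lineage group and 3 lower, with a median difference of 0.60. At an unadjusted p under 0.05 there were 3, all higher (27.3%, against 10.4% of all probes). Pomc itself differed by 0.65 (SE 0.16, limma adjusted p = 0.369, and 0.0011 in the limma fit with a brightness trend). Of 20 measured probes for 15 pan-neuronal genes, 15 averaged higher in the lineage group and 5 lower, with a median difference of 0.11. At an unadjusted p under 0.05 there was 1 of the 20 (5%, against 10.4% of all probes). It was lower, for Syt1 (-0.48, limma unadjusted p = 0.032, adjusted p = 0.437). The summed normalized intensity of the 20 probes, to which the brightest contribute most, was 93765 to 94166 on the virus-injected arrays and 100948 to 101421 on the lineage arrays. All 8 measured astrocyte probes and all 8 measured oligodendrocyte probes averaged lower in the lineage group, with medians of -0.30 and -0.47. The summed astrocyte intensity was 11524 to 12984 on the virus-injected arrays and 9436 to 9519 on the lineage arrays, and the summed oligodendrocyte intensity was 6535 to 6722 and 4183 to 4837. The astrocyte genes Gfap, Aqp4 and S100b and the oligodendrocyte genes Mog, Mobp and Ermn were not measured on these arrays. Markers of other neurons moved further: all 9 AgRP/NPY probes and all 12 kisspeptin probes averaged higher (medians 1.20 and 1.05), and 6 of 8 probes for neurons outside the arcuate nucleus averaged lower (median -1.43). The other 2, both for Nr5a1, differed by 0.22 and 0.069. The summed intensity of these 8 probes was 12429 to 14806 on the virus-injected arrays and 2766 to 2992 on the lineage arrays. The probes for Tac2, Tacr3 and Corin and Tbx3 probe ILMN_3061990, of the POMC list, were detected on no virus-injected array, and that for Pmch on no lineage array. They passed the filter only through the group where they are high, so the filter fixed their direction. They are nonetheless included in the counts and medians above. The part of these markers in the channel differences was not tested. In RNA from pooled cells, fewer cells of a type and less RNA per cell cannot be told apart.

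**Figure D3:**
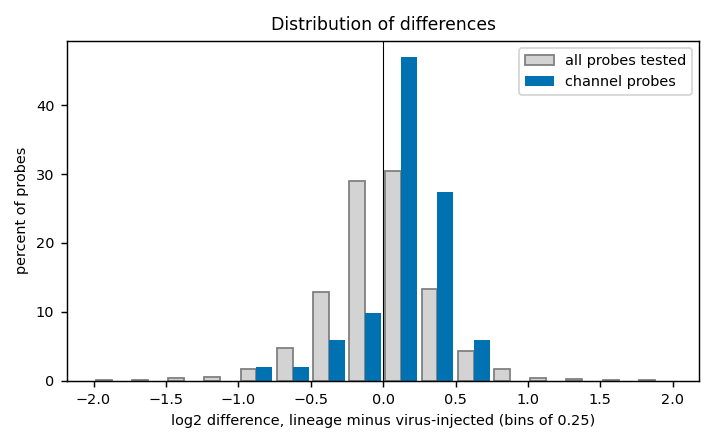
Share of probes (vertical axis, percent) by log2 difference, lineage minus virus-injected, in bins of 0.25 (horizontal axis, shown from -2 to 2). Of the channel probes 47.1% fell between 0 and 0.25 and 27.5% between 0.25 and 0.5, against 30.5% and 13.3% of all 12266 probes tested.

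Among the calcium channel genes, 20 of 27 measured probes averaged higher in the lineage group and the median log2 difference was 0.17 (0.076 to 0.23 with 1 array left out). The pore subunits accounted for 11 probes with a median of 0.051, and the auxiliary subunits for 16 probes with a median of 0.17. The interval of no pore probe excluded 0. Differences are given throughout as lineage minus virus-injected on the log2 scale.

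Cacna1g and Cacna1h encode T-type pores, which open near the resting potential and support burst firing. Their probes pointed in opposite directions, and the interval of each included 0. Cacna1h lay at 9.52 and 9.97 on the virus-injected arrays and at 10.37 and 10.02 on the lineage arrays, a difference of 0.45 (SE 0.24, 95% interval -0.17 to 1.08). The groups did not overlap, but the nearest arrays of each lay close together. Cacna1g probe ILMN_1241838 lay at 8.15 and 8.95 on the virus-injected arrays and at 8.21 and 7.82 on the lineage arrays, a difference of -0.54 (SE 0.33). The groups overlapped after normalization but not in the deposited intensities of 724 and 903 against 687 and 661, and the value ranged from -0.95 to -0.13 with 1 array left out. A further probe of Cacna1g, ILMN_1251322, lay at 7.60 and 7.98 against 7.32 and 7.41 (95% interval -0.93 to 0.087, limma adjusted p = 0.531). It was not above background on either lineage array and passed the filter only through the virus-injected arrays, so its direction lends no support. By point values, without allowance for error, virus-injected arrays were at least 1.19-fold higher. The remaining Cacna1g probe, ILMN_1256998, gave -0.19.

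The pores of the presynaptic channels, which trigger transmitter release, differed little. Cacna1a, the P/Q-type pore, lay at 8.01 and 8.02 on the virus-injected arrays and at 8.31 and 7.82 on the lineage arrays, with a difference of 0.051. Cacna1b, the N-type pore, was read by probe ILMN_3033572 at 10.81 and 10.47 against 10.82 and 10.81, and by probe ILMN_3107273 at 8.64 and 8.36 against 8.93 and 8.88. The differences were 0.18 and 0.40 (SE 0.18 and 0.17), and only the second probe separated the groups. Apart from these, Cacna1c, an L-type pore, was read by 4 probes with differences from -0.19 to 0.48. That was the widest disagreement between probes of 1 channel gene. Probes ILMN_2682984 (0.48) and ILMN_2597831 (0.20) were each detected on only 1 array per group, with SEs of 0.40 and 0.42. Probes ILMN_2677449 and ILMN_2682982 were detected on all 4 arrays, at detection p-values up to 0.045.

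The auxiliary alpha2delta and beta subunits, which bring calcium channels to the membrane and tune their gating, gave differences between -0.040 and 0.51. Cacna2d1, a target of gabapentin, lay at 12.80 and 12.75 on the virus-injected arrays and at 13.00 and 12.89 on the lineage arrays, a difference of 0.17 (SE 0.15, interval -0.23 to 0.56). Cacna2d3 differed by -0.040, Cacnb1 by 0.11 and Cacnb2 by 0.13. Cacnb4 was read by 3 probes with differences of 0.16, 0.18 and 0.51. The probe with the widest difference, ILMN_3047749, lay at 8.41 and 8.57 against 9.19 and 8.81 (SE 0.20, limma adjusted p = 0.483). All 3 probes were higher on average in the lineage group, and the other 2 overlapped between the groups.

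Most genes of the gamma group encode transmembrane AMPA receptor regulatory proteins, which act on glutamate receptors more than on calcium channels, and 8 of their 9 measured probes averaged higher in the lineage group. Cacng5 showed the most positive difference of any channel probe. Probe ILMN_2812240 lay at 10.11 and 10.03 on the virus-injected arrays and at 10.42 and 11.03 on the lineage arrays, a 1.58-fold difference (log2 0.66, SE 0.25, 95% interval 0.0086 to 1.31, limma adjusted p = 0.477). Its deposited intensities, with the standard error over beads, were 1596 ± 59.3 and 1423 ± 81.8 against 1725 ± 73.1 and 2523 ± 88.7. Lineage replicate 2 stood far above the other 3 arrays, and the difference was 0.35 without it. The other 2 Cacng5 probes differed by 0.33 (ILMN_2725698, 10.76 and 10.64 against 10.75 and 11.30) and by 0.23 (ILMN_1226821, 9.98 and 10.15 against 10.23 and 10.34). Both were again highest on lineage replicate 2. Cacng2 (stargazin) differed by 0.30, Cacng7 by 0.19, Cacng8 by 0.051 and Cacng4 by -0.30, and the 2 Cacng3 probes differed by 0.14 and 0.33.

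**Figure D4:**
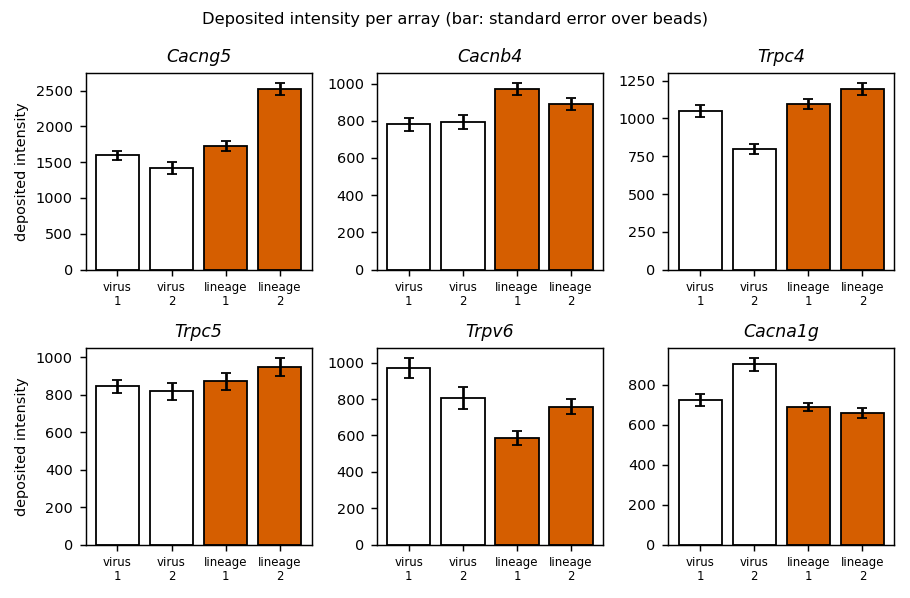
Deposited intensity (vertical axis, from 0) of 1 probe each for Cacng5, Cacnb4, Trpc4, Trpc5, Trpv6 and Cacna1g on the 2 virus-injected arrays (white) and the 2 lineage arrays (orange), with bars for the standard error over beads. Cacng5 is highest on lineage replicate 2 at 2523, and Trpv6 lowest on lineage replicate 1 at 586.

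All 6 measured probes of the sodium channel genes averaged higher in the lineage group, with a median of 0.25 (0.13 to 0.33 with 1 array left out), and none passed the test. Among the pores, Scn8a, a main sodium channel of the axon initial segment, lay at 7.47 and 7.51 on the virus-injected arrays and at 7.75 and 7.73 on the lineage arrays. The groups did not overlap, and the difference was 0.25 (SE 0.14, limma adjusted p = 0.604). This probe lay close to background, with detection p-values of 0.049 and 0.043 against 0.020 and 0.049. Its deposited intensities were 601 ± 27.1 and 602 ± 24.6 against 609 ± 40.6 and 645 ± 40.6 (standard error over beads). Scn1a, the pore mutated in Dravet syndrome, lay at 9.40 and 9.02 against 9.04 and 9.40 and differed by 0.010, with nearly the same pair of values in each group. Scn7a, the sodium-sensing channel of circumventricular organs, was detected on 1 of 2 virus-injected arrays and differed by 0.34 (interval -0.35 to 1.04).

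Sodium channel beta subunits anchor the pores and speed their gating. Scn2b lay at 12.35 and 12.45 on the virus-injected arrays and at 12.52 and 12.48 on the lineage arrays, a difference of 0.10 with an interval of -0.29 to 0.49. Scn3b differed by 0.40 on probe ILMN_1227604 (9.58 and 9.71 against 9.92 and 10.17) and by 0.25 on probe ILMN_1215136 (10.46 and 10.20 against 10.36 and 10.80). The first probe separated the groups and the second did not.

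The HCN genes analysed here were Hcn2 and Hcn3, and all 4 of their probes were detected on all 4 arrays. Hcn2 lay at 7.58 and 7.95 on the virus-injected arrays and at 7.98 and 8.04 on the lineage arrays, a difference of 0.24 (interval -0.26 to 0.75). This probe lay close to background, with detection p-values of 0.040 and 0.016 against 0.010 and 0.029. Its deposited intensities of 618 and 667 against 644 and 699 overlapped between the groups. Hcn3 was read by 3 probes that disagreed in sign. Probe ILMN_1221517 lay at 7.99 and 8.35 against 8.47 and 8.64 (difference 0.38), probe ILMN_2482138 at 8.51 and 7.81 against 7.99 and 8.06 (-0.14), and probe ILMN_2808472 at 7.51 and 8.39 against 8.15 and 8.01 (0.12). On the last 2 probes the virus-injected arrays were further apart than the groups. Probe ILMN_2808472 lay close to background on virus-injected replicate 1, with a detection p-value of 0.044. The median over the 4 HCN probes was 0.18, and it was 0.50 without virus-injected replicate 2.

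**Figure D5:**
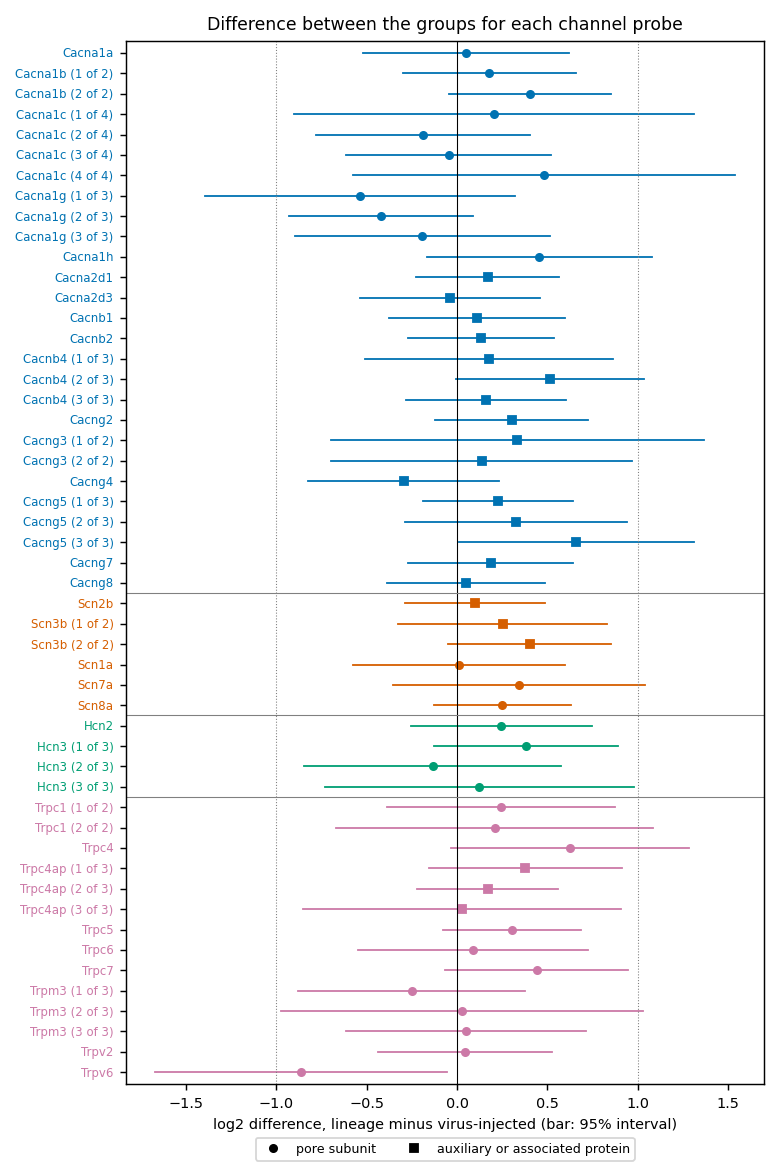
Log2 difference, lineage minus virus-injected (horizontal axis), with its 95% interval for each of the 51 measured channel probes, coloured by family; circles are pore subunits and squares auxiliary or associated proteins. Dotted lines mark a 2-fold change either way. The intervals of Cacng5 (3 of 3, probe ILMN_2812240) and Trpv6 exclude 0 without adjustment for the number of probes tested.

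The TRP probes had a median difference of 0.13, which was -0.026 without lineage replicate 2 and 0.30 without virus-injected replicate 1. The canonical TRPC genes, opened downstream of phospholipase C and by leptin signalling, were higher on average in the lineage group on all 6 of their measured probes, with a median of 0.27, and none passed the test. Trpc4 lay at 9.20 and 8.58 on the virus-injected arrays and at 9.48 and 9.56 on the lineage arrays, a 1.54-fold difference (log2 0.63, SE 0.25, interval -0.031 to 1.29, limma adjusted p = 0.494). The groups did not overlap, and the virus-injected arrays differed from each other about as much as the groups did. The difference was 0.32 without virus-injected replicate 2, 0.94 without virus-injected replicate 1 and 0.36 without background correction. Its deposited intensities were 1048 ± 38.3 and 796 ± 32.1 against 1097 ± 33.9 and 1197 ± 39.8 (standard error over beads). Trpc5, which forms channels with TRPC1 and TRPC4 and is needed for the leptin response of POMC neurons in mice, lay at 8.63 and 8.66 against 8.92 and 8.99. The replicates were close and the groups did not overlap, with a difference of 0.30 (SE 0.15, interval -0.079 to 0.69, limma adjusted p = 0.546).

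Trpc1 was read by probe ILMN_1241563 at 9.39 and 9.06 on the virus-injected arrays and 9.23 and 9.71 on the lineage arrays, and by probe ILMN_2510943 at 8.57 and 8.21 against 9.02 and 8.17. The differences of 0.24 and 0.21 were smaller than the gaps between replicates. Trpc6, a channel gated by diacylglycerol, lay at 8.31 and 8.41 against 8.15 and 8.74 and differed by 0.087. Trpc7, of the same diacylglycerol-gated group, lay at 9.06 and 9.32 against 9.78 and 9.49, without overlap, and differed by 0.44 (SE 0.19, limma adjusted p = 0.514). Trpc4ap differed by 0.38, 0.17 and 0.030 on its 3 probes.

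Outside the TRPC group, Trpv6 had the most negative difference of any channel probe. This gene encodes an epithelial calcium channel. Its measured probe lay at 9.01 and 8.62 on the virus-injected arrays and at 7.59 and 8.32 on the lineage arrays, which is 1.82-fold more on the virus-injected arrays (log2 difference -0.86, SE 0.31, 95% interval -1.67 to -0.056, limma adjusted p = 0.463). The deposited intensities were 971 ± 57.0 and 806 ± 58.9 against 586 ± 37.2 and 758 ± 40.4. The lowest array, lineage replicate 1, set much of the size, and the difference was -0.49 without it. The other Trpv6 probe was not detected on any array. Trpv2 lay at 9.90 and 9.61 against 9.70 and 9.90 and differed by 0.044, and the 3 measured Trpm3 probes, for a steroid- and heat-sensitive channel, differed by -0.25, 0.029 and 0.051.

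Of the 11 channel genes with several measured probes, 8 had the same sign on all of them and 3, Cacna1c, Hcn3 and Trpm3, had probes on both sides of 0. The spread between probes of 1 gene had a median of 0.34 and reached 0.67 for Cacna1c, beside a median difference of 0.17 between the groups. The Cacna1c probe at the upper end of that spread was detected on only 1 array per group. In the deposited annotation the probes of each of these genes named 1 transcript, except those of Trpm3, which named 2.

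Proteins that work with these channels were listed separately. Of 15 measured sodium channel partners and sodium transport genes (22 probes), 1 probe was higher and 1 lower at an unadjusted p under 0.05 (9.09%, against 10.4% of all probes), and the median difference was 0.017. Sptbn4, the spectrin of the axon initial segment, lay at 7.21 and 7.01 against 8.02 and 8.07 (limma adjusted p = 0.295). It was not above background on either virus-injected array and passed the filter only through the lineage arrays, so its direction lends no support. By point values, without allowance for error, lineage arrays were at least 1.54-fold higher. Atp1b2, a sodium pump subunit that astrocytes also make, lay at 12.15 and 11.71 against 11.03 and 10.87, a difference of -0.98 (SE 0.21, limma adjusted p = 0.329). Among the genes that missed this threshold, Ank3 (ankyrin G) gave 0.26 on the probe of smaller p and 0.097 on another.

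Of 25 calcium channel partners and calcium handling genes (39 probes), 1 probe was higher and 1 lower at this threshold (5.13%, against 10.4% of all probes), with a median of -0.020. Rrad, a small GTPase that inhibits calcium channels by binding their beta subunits, lay at 7.59 and 7.11 on the virus-injected arrays and at 9.24 and 8.62 on the lineage arrays (difference 1.58, SE 0.29, limma adjusted p = 0.303), and was detected on 1 of 2 virus-injected arrays. Atp2a3, a calcium pump of the endoplasmic reticulum, lay at 9.10 and 8.88 against 7.67 and 6.86 (difference -1.73, SE 0.31, limma adjusted p = 0.303), and was detected on 1 of 2 lineage arrays. The groups did not overlap for either gene.

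Of 13 HCN and TRP channel partners (19 probes), 0 were higher and 2 lower (10.5%, against 10.4% of all probes), with a median of 0.14. The 2 were Mlc1, a membrane protein of astrocytes, at 10.01 and 9.60 against 8.78 and 7.94 (difference -1.45, SE 0.34, limma adjusted p = 0.357), and Slc9a3r1, a PDZ scaffold, at 9.11 and 8.99 against 8.12 and 8.19 (-0.89, SE 0.15, adjusted p = 0.295). Beside Atp1b2 and Mlc1 stand the lower astrocyte markers given above, whose part was not tested. Lepr, the leptin receptor upstream of the TRPC channels, lay at 7.63 and 8.15 against 8.85 and 8.35, without overlap, and differed by 0.71 (SE 0.28, limma adjusted p = 0.487). In the fit with a brightness trend, Atp1b2, Mlc1, Atp2a3 and Rrad had adjusted p-values of 0.0016, 0.019, 0.022 and 0.034, whereas the lowest channel probe, for Cacng5, had 0.118. Over the alternatives the difference of Rrad ranged from 0.66 to 1.90, that of Atp2a3 from -2.11 to -0.72, that of Sptbn4 from 0.33 to 1.14 and that of Mlc1 from -1.85 to -0.80. The difference of Slc9a3r1 ranged from -0.96 to -0.43, that of Atp1b2 from -1.19 to -0.76 and that of Lepr from 0.30 to 0.97.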

How the data were processed

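RNA precipitated with tagged ribosomes was measured on 4 single-colour bead arrays. Per the file headers, the deposited table holds, for every probe, the mean intensity, a detection p-value, the bead number and the bead-level standard error. Per the submitters' processing notes the software was GenomeStudio; background correction and scaling are not given in the sources used here. The authors' processed intensities, also deposited and a straight-line function of the deposited intensities within 0.0101, were used only as an alternative. They are linear, background-subtracted and scaled to a common mean, with column medians of 134, 126, 122 and 130.

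Intensities were corrected with limma 3.58.1 in R 4.3.3 (normexp from the detection p-values, offset 16), quantile-normalized and put on the log2 scale. The 12266 probes detected (detection p under 0.05) on 2 or more arrays were fitted with lmFit and eBayes, and lineage was compared with virus-injected (two-sided, Benjamini-Hochberg over all probes, threshold 0.05). The fit has 2 residual degrees of freedom among arrays. With 2 arrays against 2, the smallest p of an exact permutation test is 0.333, so single probes were judged by the limma fit alone. A value after ± is the standard error over beads.

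Symbols came from the platform annotation, which names 1 gene for 23978 probes, several for 0 and none for 1719. Promoter windows are from RefSeq (GRCm38.p6, 32851 windows). The channel genes, partner lists and marker lists were chosen with earlier results of these data known. All channel genes are accounted for. Values on every array were required for a measured channel gene with an unadjusted p under 0.05, with a difference of at least 0.5 without overlap, or in a list of HCN, T-type, TRPC and selected TRPV and TRPM genes; the values given for other channel genes were picked after they were seen. Of each partner list, the members with an unadjusted p under 0.05 and at most 4 others of smallest p were named. The alternatives changed background correction, offset, scaling, filter, the model of the spread, a replicate block and the arrays used.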

Additional observations from a re-analysis of the deposited data

How the results depend on the processing

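In the alternatives that kept all 4 arrays, no channel probe passed an adjusted p of 0.05. The lowest limma adjusted p there was 0.118, for Cacng5 with the intensity trend. Of the 18 alternatives tried, 4 were added after seeing the data, and these left out an array but kept every measured probe. Over the whole array, 232 probes passed with an intensity trend, 45 without background correction, 5 with median scaling and 1 on the authors' processed values. The count of channel probes at an unadjusted p under 0.05, 2 as reported, was 6 with the trend, 4 each with uncorrected intensities, with no filter and with detection required on all 4 arrays, 1 on the authors' processed values, 0 with the replicate block, and 0 to 5 with 1 array left out. With the replicate block 0 probes of the array passed the adjusted threshold; deviations of arrays sharing a number correlated at -0.024, so the numbers were not taken as pairs. Without background correction the median difference was 0.083 for calcium and 0.11 for sodium channel probes. With 1 array left out the medians ranged from 0.076 to 0.23 for calcium, 0.13 to 0.33 for sodium, 0.13 to 0.50 for HCN and -0.026 to 0.30 for TRP probes; the cause was not tested. The count of channel probes with a higher mean in the lineage group, added after seeing the data, was 40 or 41 of 51 in the settings that kept all arrays and these probes, 36 of 45 under the stricter filter and 34 to 38 with 1 array left out.

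The sign held in the alternatives that could be run for 30 of 51 channel probes, 25 higher and 5 lower, among them the Cacng5, Trpc4, Trpc5 and Trpv6 probes described. For 21 it turned when 1 array was left out, and these differences ranged from -0.19 to 0.30 for Cacna1a, -0.46 to 0.072 (ILMN_2677449), -0.26 to 0.17 (ILMN_2682982), -0.36 to 0.78 (ILMN_2597831) and -0.018 to 1.00 (ILMN_2682984) for Cacna1c, -0.52 to 0.13 for Cacna1g (ILMN_1256998), -0.19 to 0.11 for Cacna2d3, -0.017 to 0.24 for Cacnb1, -0.11 to 0.47 for Cacnb4 (ILMN_1230917), -0.26 to 0.53 (ILMN_2843891) and -0.11 to 0.80 (ILMN_1248692) for Cacng3, -0.077 to 0.18 for Cacng8, -0.48 to 0.21 (ILMN_2482138) and -0.32 to 0.56 (ILMN_2808472) for Hcn3, -0.18 to 0.20 for Scn1a, -0.21 to 0.63 for Trpc1 (ILMN_2510943), -0.39 to 0.45 for Trpc4ap (ILMN_2940595), -0.20 to 0.38 for Trpc6, -0.25 to 0.35 (ILMN_3098069) and -0.52 to 0.56 (ILMN_3025252) for Trpm3, and -0.10 to 0.19 for Trpv2. Trpm3 probe ILMN_3025252 also turned with cyclic loess (-0.011) and on the authors' processed values (-0.035). The number of arrays, 2 in each group, limits the precision of every difference.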
